A study of Homo sapiens with 12 samples.

Results

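Monocytes and macrophages carry surface receptors that sense microbial products and take up modified lipoproteins, haemoglobin and glycans, and they secrete lectins and bacteriolytic enzymes. The markers described here are 10 such genes: CD14, CD36, CD68, CD163, MSR1, MRC1, LYZ, FCN1, AIF1 and CD33. A probe set, the group of array probes that reads 1 transcript or a few related ones, was taken where the array annotation gave it a single gene among these 10. That rule gave 18 probe sets of 8 genes, out of 22215 probe sets and 11963 singly annotated genes on the array after control probe sets were left out. The only CD68 probe set was annotated to 2 genes and was not used here. CD33 had no probe set in the annotation used here and was not analysed here.

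Transcript levels were measured on 12 arrays from 2 human acute myeloid leukaemia lines, U937, which has monocytic features, and MV4-11, which carries an MLL fusion. In each line, 3 arrays came from cells given a lentiviral shRNA against CHD4, the ATPase of the NuRD chromatin remodelling complex, and 3 from cells given a scrambled shRNA. All 4 groups carried a vector that also expresses green fluorescent protein, and the growth medium was the same for both lines. The study asks what depletion of CHD4 does to the transcriptome. In the labels the target reads CDH4, and CHD4 is the spelling of the design text. The number of hairpins, any sorting of transduced cells and the time before RNA extraction are not given in the sources read. Values are log2 RMA values as deposited, each mean stands with the SD of 3 arrays, and changes are on the log2 scale with their standard error. An adjusted p is from limma with Benjamini-Hochberg adjustment over all 22215 probe sets, and a probe set is said to rise or fall where it was under 0.05.

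The 3 CHD4 probe sets were lower with the shRNA in both lines. The probe set 201183_s_at went from 10.47 ± 0.21 to 8.27 ± 0.16 (SD, n = 3) in U937 and from 10.67 ± 0.02 to 8.68 in MV4-11, and no arrays of the compared groups overlapped. Of the myeloid markers, PTPRC, the leukocyte phosphatase CD45, lay between 10.63 and 11.09 in the 4 group means and the transcription factor CEBPA between 11.30 and 11.62, whereas the granule enzyme MPO lay between 5.20 and 5.78. Of the 7 myeloid markers measured, 0 passed in U937 by limma, where 2 had an unadjusted p under 0.05, and 1 in MV4-11. That was ITGAM, the integrin chain CD11b of monocytes and granulocytes, which rose by 1.41 (adjusted p = 0.00212) in MV4-11, with a U937 change of 0.66 (adjusted p = 0.0977). SPI1, CSF3R and FCGR2A had changes between -0.18 and 0.13 in both lines. FLT3, the receptor kinase mutated in MV4-11, had means of 6.64 and 6.79 in U937 and of 9.99 and 10.05 in MV4-11, and MEIS1, a target of MLL fusions, rose by 0.69 (adjusted p = 0.0163) in U937 with an MV4-11 change of 0.22 (adjusted p = 0.402). Markers of T cells, B cells, NK cells, erythroid cells, megakaryocytes, epithelium and fibroblasts gave 3 rises in each line, CD2, CD79B and ITGA2B, or 12% of 25 measured genes, where 5.53% of all genes passed in U937 and 8.75% in MV4-11. The array that lay farthest along the first principal component, with 37.9% of the variance, was MV4-11 CHD4 shRNA replicate 2. On the second, the arrays ran from -34.51 in U937 CHD4 shRNA replicate 3 to 38.01 in MV4-11 scrambled replicate 3.

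Scavenger receptors bind and internalise altered self and microbial material. CD36, of class B, takes up oxidised lipoprotein and long-chain fatty acids and is also found on platelets. MSR1, of class A, binds modified lipoprotein, CD163 clears haemoglobin bound to haptoglobin, and the lectin MRC1 binds mannose-bearing glycans. CD14 presents bacterial lipopolysaccharide to Toll-like receptor 4. LYZ is lysozyme, FCN1 is a secreted lectin that starts complement, and AIF1 is a calcium-binding, actin-bundling protein of macrophages.

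CD36 and AIF1 rose with CHD4 shRNA in both lines, CD36 by about 4- to 6-fold on its brighter probe sets and AIF1 by less than 2-fold. CD14, CD163, LYZ and FCN1 had no probe set past the threshold in either line, and neither did MRC1. One dim MSR1 probe set fell in U937. In U937, 6 of the 18 probe sets passed, 5 higher and 1 lower, where 4.51% of all probe sets passed, 1.86% higher and 2.65% lower. In MV4-11, 5 passed, all higher, where 7.47% of all probe sets passed, 3.88% higher and 3.59% lower. These calls come from 3 of the 8 genes in U937 and from 2 in MV4-11, since 2 probe sets of CD36 and 3 of AIF1 share a gene. The members were chosen with earlier results of these data known. Without 1 array, the U937 count ranged from 0 to 6 and the MV4-11 count from 2 to 5. In U937 it was 0 without scrambled replicate 1 or 3, 2 without CHD4 shRNA replicate 2 or 3, and 4 without scrambled replicate 2. In these fits, in that order, 2.09%, 2.24%, 1.78%, 2.22% and 2.48% of all probe sets passed, against 4.51% with all arrays. In MV4-11 the count was 2 without CHD4 shRNA replicate 2 or scrambled replicate 3. It was 3 without CHD4 shRNA replicate 1 or scrambled replicate 1. In these fits, in that order, 4.11%, 3.73%, 2.46% and 5.22% of all probe sets passed, against 7.47%. The median log2 change of the 18 was 0.10 in U937 and 0.16 in MV4-11, against 0.00 and -0.03 over all probe sets. With the replicate number as a block in MV4-11, where same-numbered arrays deviated together, the MV4-11 count stayed at 5 with the same 5 probe sets, while 13.1% of all probe sets passed.

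**Figure D1:**
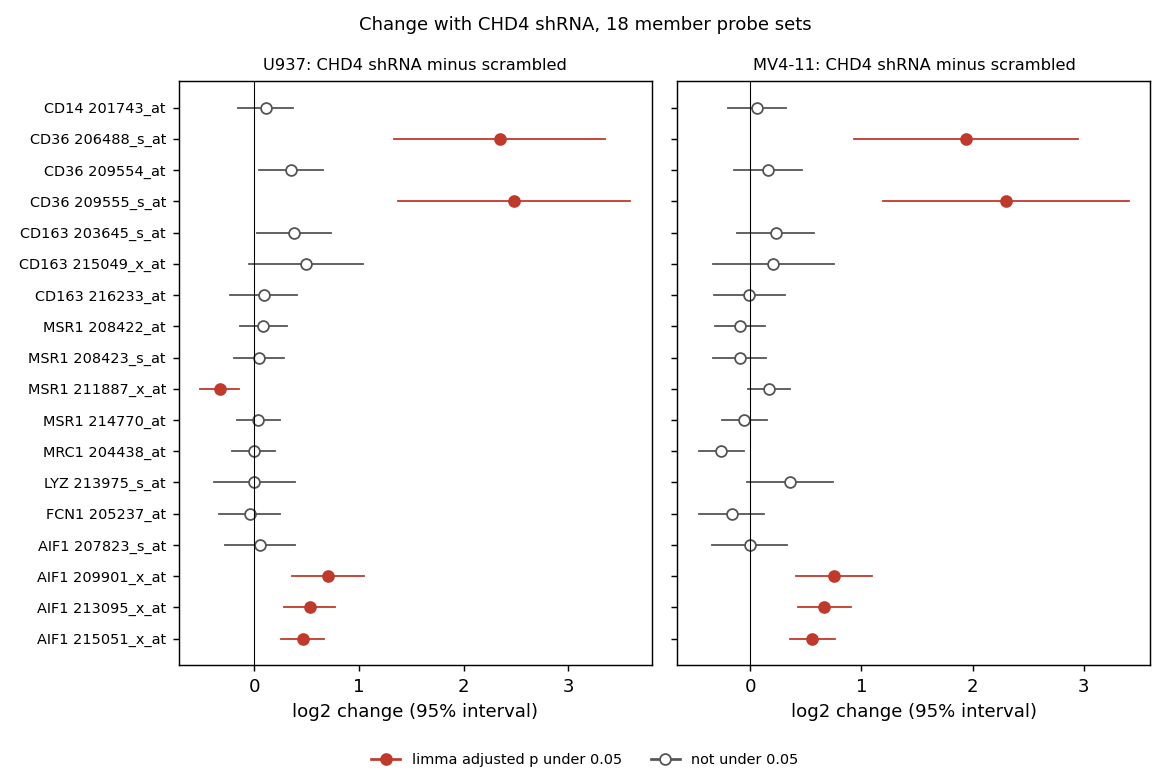
Log2 change with CHD4 shRNA (x axis) for each of the 18 probe sets (y axis) in U937 (left) and MV4-11 (right), with 95% intervals from the limma fit over 12 arrays; filled red points had an adjusted p under 0.05. CD36 206488_s_at and 209555_s_at lie near 2 in both lines, 3 AIF1 probe sets lie between 0.46 and 0.75, and the other points lie between -0.33 and 0.49.

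CD36 had the largest changes among the members. On probe set 209555_s_at the U937 scrambled arrays read 7.32, 7.31 and 7.07 and the CHD4 shRNA arrays 8.82, 9.19 and 11.14, in the order of replicates 1 to 3. The MV4-11 scrambled arrays read 5.51, 6.15 and 5.61 and the CHD4 shRNA arrays 8.39, 8.73 and 7.05. Every CHD4 shRNA array was above every scrambled array of its line, and the spread was wider among the CHD4 shRNA arrays, with U937 replicate 3 the highest of the 12 and MV4-11 replicate 3 the lowest of its group. The change was 2.48 (SE 0.51, adjusted p = 0.0156), or 5.59-fold, in U937 and 2.30 (SE 0.51, adjusted p = 0.0177), or 4.92-fold, in MV4-11.

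Probe set 206488_s_at gave the same order of arrays within each CHD4 shRNA group. Its U937 scrambled arrays read 6.81, 7.16 and 6.78 and its CHD4 shRNA arrays 8.39, 8.84 and 10.55. In MV4-11 the scrambled arrays read 5.49, 6.36 and 5.73 and the CHD4 shRNA arrays 7.87, 8.46 and 7.07. The compared groups did not overlap, and the change was 2.34 (SE 0.47, adjusted p = 0.0126) in U937 and 1.94 (SE 0.47, adjusted p = 0.0246) in MV4-11. The third probe set, 209554_at, is among the dimmest 25% of the array by its mean over 12 arrays. It ran from 4.58 to 5.54, its compared groups overlapped in both lines, and its changes of 0.35 (SE 0.14, adjusted p = 0.215) in U937 and 0.16 (SE 0.14, adjusted p = 0.585) in MV4-11 did not pass.

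**Figure D2:**
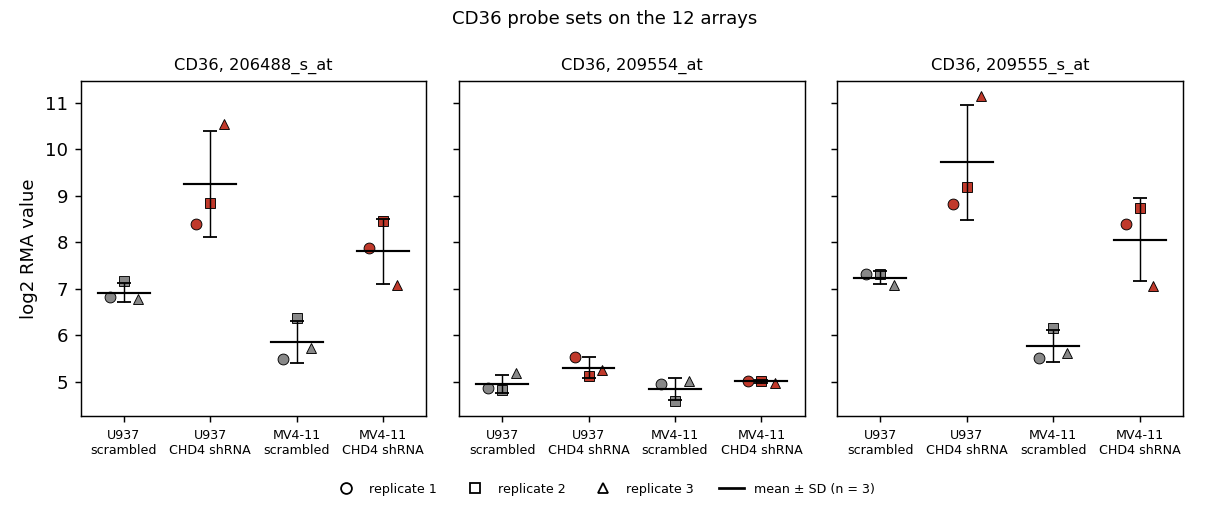
Log2 RMA value (y axis) of the 3 CD36 probe sets in the 4 groups (x axis); points are single arrays, marked by replicate, and the bar and whiskers are the mean and SD of 3 arrays. On 206488_s_at and 209555_s_at the red CHD4 shRNA points lie above the grey scrambled points of their line, with U937 replicate 3 at 10.55 and 11.14, while 209554_at stays between 4.58 and 5.54.

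Leaving out single arrays ended some of the CD36 calls. Without U937 CHD4 shRNA replicate 3 the U937 changes were 1.77 (adjusted p = 0.0345) on 209555_s_at and 1.70 (adjusted p = 0.0258) on 206488_s_at. The U937 calls were lost without scrambled replicate 1 (adjusted p = 0.0563 on both), without scrambled replicate 3 (0.0652 on 209555_s_at and 0.0550 on 206488_s_at) and, on 209555_s_at, without scrambled replicate 2 (0.0512). In MV4-11, the calls on 209555_s_at and 206488_s_at were lost without CHD4 shRNA replicate 1 (0.0814 and 0.0905), CHD4 shRNA replicate 2 (0.0659 and 0.0902), scrambled replicate 1 (0.0572 and 0.0809) and scrambled replicate 3 (0.0641 and 0.0835). Across the 12 fits without 1 array the change on 209555_s_at stayed between 1.77 and 2.93 in U937 and between 1.96 and 2.80 in MV4-11. CHD4 itself was not lowest in the U937 array with the highest CD36: its 201183_s_at values were 8.23, 8.13 and 8.45 in U937 CHD4 shRNA replicates 1, 2 and 3. In MV4-11 they were 8.79, 8.85 and 8.39, and the array with the least CD36 of that group had the least CHD4. Whether the CHD4 level bears on the spread of CD36 was not tested.

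CD36 levels also differed between the lines in order, from MV4-11 scrambled through U937 scrambled and MV4-11 CHD4 shRNA to U937 CHD4 shRNA on all 3 probe sets. The scrambled arrays of the lines did not overlap on 209555_s_at or 206488_s_at, with MV4-11 lower by 1.48 (SE 0.51, adjusted p = 0.133) and by 1.06 (SE 0.47, adjusted p = 0.239), which did not pass. When only the 6 scrambled arrays were fitted, whose spread is narrower, the adjusted p was 0.000832 and 0.0156. U937 scrambled and MV4-11 CHD4 shRNA arrays, the middle neighbours in that order, overlapped on each probe set. The change with CHD4 shRNA differed between the lines by -0.18 on 209555_s_at (95% interval -1.75 to 1.38, adjusted p = 0.983), so a difference of more than 2-fold in either direction was within the interval.

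CD36 is also a platelet protein, and of 4 megakaryocyte markers ITGA2B, the platelet integrin chain, rose by 1.30 in U937 and by 0.97 in MV4-11. PF4, a platelet chemokine, changed by 0.22 (adjusted p = 0.268) and 0.01 (adjusted p = 0.979), and neither PPBP nor GP9 passed. The summed log2 level of the 4 markers was moved mainly by ITGA2B. It was 23.66 to 24.27 in U937 scrambled and 24.95 to 26.16 in U937 CHD4 shRNA arrays. In MV4-11 it was 24.12 to 24.58 and 25.09 to 26.78. CD2, of T cells, was 1 of 4 markers of its list to rise, by 1.40 and 1.77. CD3D, CD3E and CD8A changed by 0.14, -0.15 and -0.23 in U937 and by -0.04, 0.03 and -0.12 in MV4-11. The summed list, moved mainly by CD2, went from 22.64 to 23.28 up to 23.75 to 24.73 in U937. In MV4-11 it went from 22.18 to 22.72 up to 23.77 to 24.59. CD79B, of B cells, was 1 of 3, at 0.60 and 1.34. MS4A1 and CD79A changed by 0.05 and 0.04 in U937 and by -0.25 and -0.03 in MV4-11, and neither passed. The sums, moved mainly by CD79B, were 17.09 to 17.76 and 17.83 to 18.54 in U937. In MV4-11 they were 17.19 to 17.38 and 17.88 to 18.88. The part of these genes in the CD36 and AIF1 results was not tested. In such bulk RNA, more cells with a transcript and more transcript per cell cannot be told apart.

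The genes with the pattern most like CD36 206488_s_at, both centred on their own mean over the 12 arrays, were CSRP3, AIM2 and TGFB1I1. Their root mean square differences from it were 0.35, 0.47 and 0.58, where the CD36 profile itself varied by 1.38. CSRP3, a muscle LIM protein, changed by 2.89 in U937 and 1.88 in MV4-11. AIM2, a sensor of cytosolic DNA, changed by 2.08 and 2.02, and TGFB1I1, a focal adhesion adaptor, by 1.56 and 1.91. The choice by likeness fixes that these genes are high where CD36 is, so their changes are a description.

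AIF1 rose in both lines on each of its 3 bright probe sets. On 215051_x_at the U937 scrambled arrays read 11.75, 11.75 and 11.68 and the CHD4 shRNA arrays 12.06, 12.20 and 12.30. The MV4-11 scrambled arrays read 11.53, 11.61 and 11.44 and the CHD4 shRNA arrays 12.07, 12.19 and 11.99. The groups were tight and did not overlap within a line. The change was 0.46 (SE 0.09, adjusted p = 0.0149), or 1.38-fold, in U937 and 0.56 (SE 0.09, adjusted p = 0.00454), or 1.47-fold, in MV4-11.

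On AIF1 213095_x_at the U937 arrays went from 10.71, 10.74 and 10.60 to 11.09, 11.18 and 11.36, a change of 0.53 (SE 0.11, adjusted p = 0.0176). The MV4-11 arrays went from 10.44, 10.67 and 10.43 to 11.12, 11.36 and 11.06, a change of 0.67 (SE 0.11, adjusted p = 0.00433). On 209901_x_at the U937 arrays went from 10.70, 10.81 and 10.22 to 11.13, 11.29 and 11.42 (0.70, SE 0.16, adjusted p = 0.0243) and the MV4-11 arrays from 10.51, 10.68 and 10.41 to 11.16, 11.55 and 11.15 (0.75, SE 0.16, adjusted p = 0.0133). The compared groups did not overlap on either probe set, and scrambled replicate 3 was the lowest AIF1 array of its group in both lines on all 3. The fourth probe set, 207823_s_at, is among the dimmest 25% of the array and changed by 0.05 (adjusted p = 0.922) in U937 and -0.01 (adjusted p = 0.988) in MV4-11. The suffix _x_at, which the 3 probe sets that rose share, marks sets whose probes can also bind other transcripts.

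**Figure D3:**
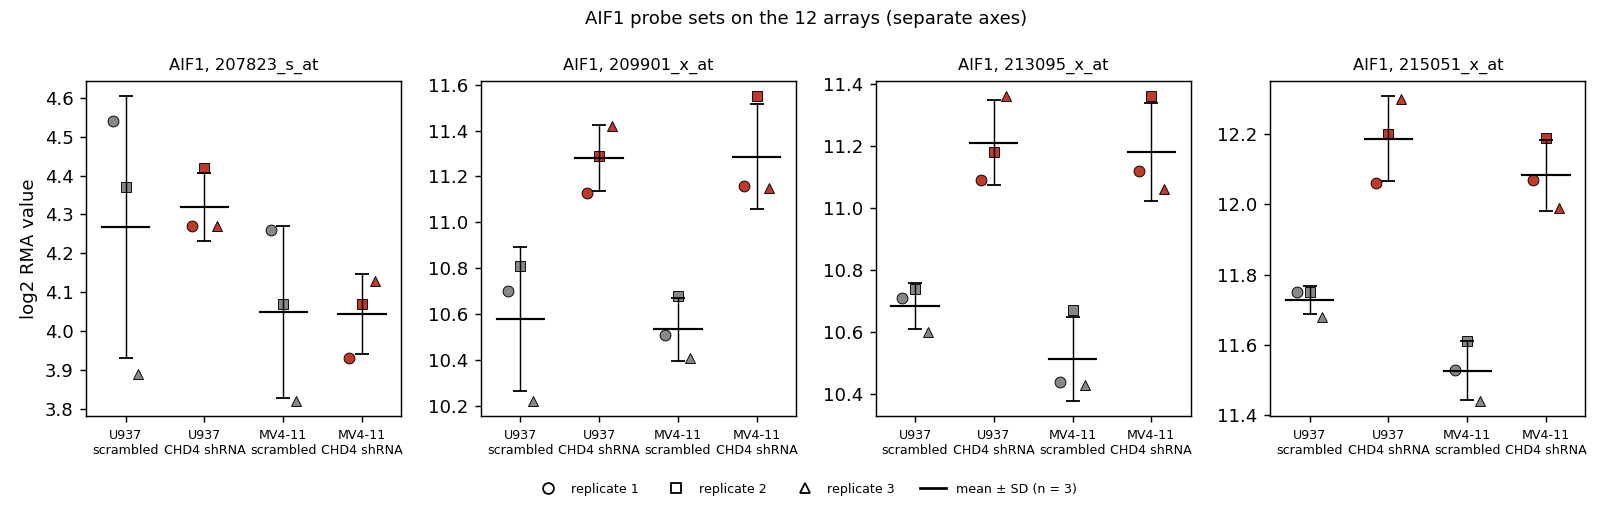
Log2 RMA value (y axis, a separate scale in each panel) of the 4 AIF1 probe sets in the 4 groups (x axis); points are single arrays, marked by replicate, with the mean and SD of 3 arrays. On 209901_x_at, 213095_x_at and 215051_x_at the CHD4 shRNA arrays lie above the scrambled arrays of their line, whereas on 207823_s_at the groups overlap between 3.82 and 4.54.

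In MV4-11 the calls on AIF1 215051_x_at and 213095_x_at were kept in all 12 fits without 1 array, with a highest adjusted p of 0.0243 and 0.0209, and that on 209901_x_at was lost without CHD4 shRNA replicate 2 (0.0501) and scrambled replicate 3 (0.0576). In U937 all 3 calls were lost without CHD4 shRNA replicate 2, CHD4 shRNA replicate 3, scrambled replicate 1 or scrambled replicate 3. On 215051_x_at the adjusted p was then 0.0620, 0.0685, 0.0508 and 0.0599, with changes between 0.40 and 0.47. On 213095_x_at it was 0.0615, 0.0788, 0.0589 and 0.0740, and on 209901_x_at 0.0886, 0.0978, 0.0553 and 0.0875. Between scrambled groups, MV4-11 minus U937 was -0.04 (SE 0.16, adjusted p = 0.916) on 209901_x_at, with overlap, and -0.20 (SE 0.09, adjusted p = 0.274) on 215051_x_at, without it. The change differed between the lines by 0.10 on 215051_x_at, with a 95% interval from -0.19 to 0.38.

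The genes most like AIF1 213095_x_at over the 12 arrays were the kinase MAST3, the calcium-binding protein S100A1 and TMEM164, with root mean square differences of 0.09, 0.10 and 0.10 where the AIF1 profile varied by 0.32. MAST3 changed by 0.61 and 0.73, S100A1 by 0.47 and 0.50 and TMEM164 by 0.64 and 0.69 in U937 and MV4-11, which the choice by likeness to AIF1 fixes in direction.

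The sequences before the starts of both genes that rose in both lines are shown with those of CD14 and FCN1, which did not pass, as their regulatory context. They are the 250 bases before the RefSeq start in GRCh38.p14, for CD36 and AIF1 the most upstream of 6 and 2 annotated starts, 5′ to 3′ on the gene's strand. Capitals mark matches on either strand to the PU.1 core GAGGAA, the C/EBP motif TTNNGCAA or the AP-1 motif TGANTCA. PU.1 is a transcription factor, and C/EBP and AP-1 are transcription factor families. They act in myeloid cells among others.
CD36, chr7:80601957-80602206, plus strand: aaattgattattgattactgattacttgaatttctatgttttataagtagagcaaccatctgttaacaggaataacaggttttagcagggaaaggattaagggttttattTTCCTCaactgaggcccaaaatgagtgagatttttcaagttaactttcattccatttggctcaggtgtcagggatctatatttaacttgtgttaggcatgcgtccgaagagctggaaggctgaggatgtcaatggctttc
AIF1, chr6:31614984-31615233, plus strand: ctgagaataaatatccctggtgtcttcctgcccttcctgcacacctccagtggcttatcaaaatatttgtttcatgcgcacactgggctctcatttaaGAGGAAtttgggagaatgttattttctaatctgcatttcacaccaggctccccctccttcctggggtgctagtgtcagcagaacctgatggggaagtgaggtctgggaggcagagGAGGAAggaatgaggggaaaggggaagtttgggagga
CD14, chr5:140633176-140633425, minus strand: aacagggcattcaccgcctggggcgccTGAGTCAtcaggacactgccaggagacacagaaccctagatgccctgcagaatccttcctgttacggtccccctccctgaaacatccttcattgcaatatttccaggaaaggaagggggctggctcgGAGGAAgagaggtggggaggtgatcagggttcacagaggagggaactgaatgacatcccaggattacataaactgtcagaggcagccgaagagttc
FCN1, chr9:134917913-134918162, minus strand: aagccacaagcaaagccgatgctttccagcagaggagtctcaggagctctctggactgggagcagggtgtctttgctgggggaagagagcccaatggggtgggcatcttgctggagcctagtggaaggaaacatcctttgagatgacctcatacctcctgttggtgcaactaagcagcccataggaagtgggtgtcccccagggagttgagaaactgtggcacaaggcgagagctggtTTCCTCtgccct
The CD36 window shown held 1 PU.1 match, starting 140 bases before the gene start. The AIF1 window shown held 2, starting 152 and 37 bases before the start. Matches varied with the start, numbered here from the most upstream. For CD36, starts 4 and 6 had 1 PU.1 match each, start 5 had an AP-1 match, and starts 2 and 3 had no match. For AIF1, start 2 had 1 PU.1 match. The CD14 window held a PU.1 match at 96 bases and an AP-1 match at 223 bases, and the FCN1 window a PU.1 match at 12 bases. Windows of the same length held a PU.1 match in 23.6% of 35116 promoters, a C/EBP match in 9.05% and an AP-1 match in 6.57%. No match overlapped one of another motif. The matches describe these letters only; genes that rose and genes that did not both held the PU.1 letters.

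CD14 was dim, with its probe set 201743_at in the dimmest 25% of the array. U937 scrambled arrays read 5.14, 5.29 and 5.18 and CHD4 shRNA arrays 5.39, 5.22 and 5.32. MV4-11 scrambled arrays read 5.06, 5.13 and 4.96 and CHD4 shRNA arrays 4.83, 5.35 and 5.16. The groups overlapped in both lines. The change was 0.11 (95% interval -0.15 to 0.37, adjusted p = 0.749) in U937 and 0.06 (-0.20 to 0.33, adjusted p = 0.824) in MV4-11.

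LYZ was among the brightest signals, near the top of the deposited scale, which ended at 15.05. Its U937 scrambled arrays read 13.91, 14.01 and 13.27 and its CHD4 shRNA arrays 13.78, 13.78 and 13.63, and both means were 13.73. In MV4-11 the scrambled arrays read 13.30, 13.16 and 13.27 and the CHD4 shRNA arrays 13.48, 13.93 and 13.40. These MV4-11 groups did not overlap, but the change of 0.36 (SE 0.18, adjusted p = 0.261) did not pass. U937 scrambled replicate 3 stood with the MV4-11 scrambled arrays rather than with the other two. MV4-11 scrambled was lower than U937 scrambled by 0.49 (SE 0.18, adjusted p = 0.157), and by 0.72 (adjusted p = 0.0219) without that array.

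FCN1 did not separate the groups. U937 scrambled arrays read 7.67, 7.50 and 7.84, U937 CHD4 shRNA 7.43, 7.52 and 7.92, MV4-11 scrambled 7.97, 7.71 and 7.87, and MV4-11 CHD4 shRNA 7.75, 7.57 and 7.73. All 4 groups overlapped with their neighbours in the order of means. The change was -0.05 (95% interval -0.34 to 0.25, adjusted p = 0.922) in U937 and -0.17 (-0.46 to 0.13, adjusted p = 0.533) in MV4-11.

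CD163 had higher means with CHD4 shRNA on its 2 brighter probe sets, without passing. On 215049_x_at the U937 scrambled arrays read 5.48, 5.58 and 5.34 and the CHD4 shRNA arrays 5.67, 6.02 and 6.18, and the MV4-11 arrays 5.40, 5.32 and 5.03 and then 4.98, 6.21 and 5.18. The U937 groups did not overlap, whereas in MV4-11 replicate 2 alone stood above the scrambled arrays. The change was 0.49 (SE 0.25, adjusted p = 0.356) in U937 and 0.21 (SE 0.25, adjusted p = 0.709) in MV4-11, or -0.17 in MV4-11 without CHD4 shRNA replicate 2. Probe set 203645_s_at changed by 0.38 (adjusted p = 0.248) and 0.23 (adjusted p = 0.466), with MV4-11 CHD4 shRNA replicate 2 again the highest of its group at 5.81. The dim 216233_at changed by 0.09 and -0.01. Between CHD4 shRNA groups, MV4-11 was lower than U937 on 215049_x_at by 0.50 (adjusted p = 0.247), and by 0.88 (adjusted p = 0.0107) without MV4-11 CHD4 shRNA replicate 2, the array that also stood farthest along the first principal component.

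MRC1 was dim in both lines, with 204438_at between 3.28 and 3.74 on the 12 arrays. U937 arrays read 3.73, 3.74 and 3.48 with the scrambled and 3.61, 3.62 and 3.70 with the CHD4 shRNA, which overlapped. MV4-11 arrays read 3.60, 3.49 and 3.64 and then 3.38, 3.28 and 3.29, which did not. The MV4-11 change of -0.26 (SE 0.09, adjusted p = 0.115) did not pass, and the U937 change was -0.01 (adjusted p = 0.986).

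**Figure D4:**
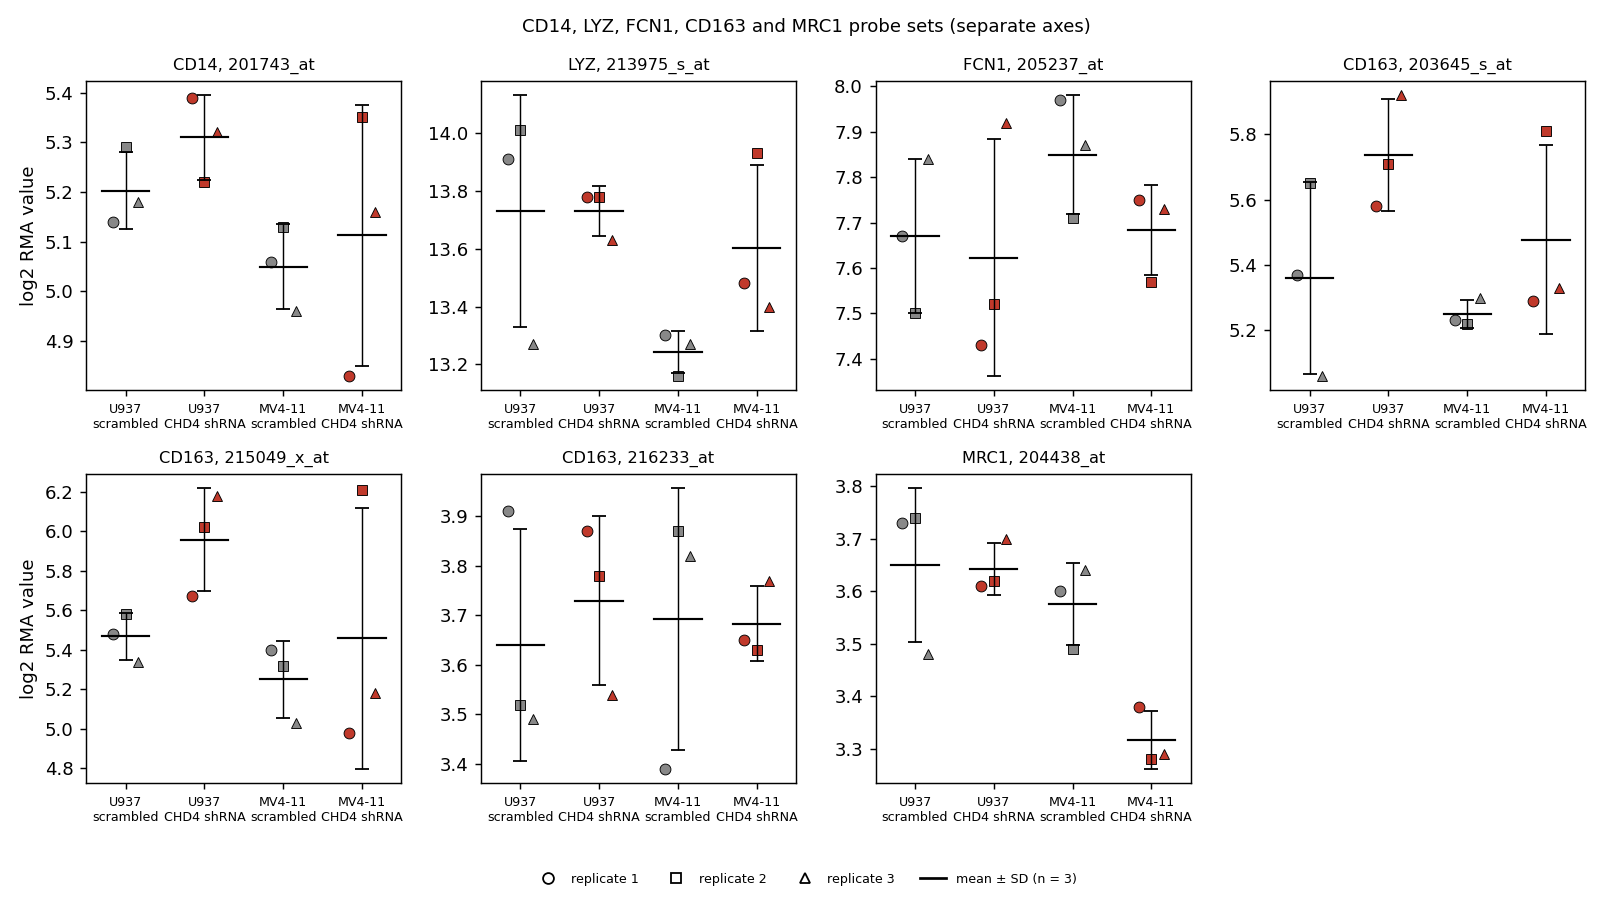
Log2 RMA value (y axis, a separate scale in each panel) of the CD14, LYZ, FCN1, CD163 and MRC1 probe sets in the 4 groups (x axis); points are single arrays, marked by replicate, with the mean and SD of 3 arrays. Grey scrambled and red CHD4 shRNA points of a line overlap in most panels; the exceptions are LYZ in MV4-11, CD163 215049_x_at in U937 and MRC1 in MV4-11.

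All 4 MSR1 probe sets were among the dimmest 25% of the array. On 211887_x_at the U937 scrambled arrays read 4.42, 4.53 and 4.34 and the CHD4 shRNA arrays 4.05, 4.09 and 4.15, while MV4-11 arrays read 4.01, 4.10 and 4.19 and then 4.25, 4.26 and 4.30. The compared groups did not overlap in either line, and they moved in opposite directions. The change was -0.33 (SE 0.09, adjusted p = 0.0467), a 1.26-fold fall, in U937 and 0.17 (SE 0.09, adjusted p = 0.275) in MV4-11. The difference between these changes, 0.50 (SE 0.12), had an unadjusted p of 0.00124 and an adjusted p of 0.782. Leaving out 1 array ended the U937 call in 11 of 12 fits, with an adjusted p up to 0.166, and it was kept only without MV4-11 scrambled replicate 3 (0.0486). It was also lost when arrays were centred on their median (0.0501) or only the U937 arrays were fitted (0.0815).

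The other MSR1 probe sets did not repeat this pattern. In U937, 208422_at, 208423_s_at and 214770_at changed by 0.08, 0.04 and 0.04, with a lowest adjusted p of 0.778, and their compared groups overlapped. In MV4-11 they changed by -0.09, -0.10 and -0.05, with a lowest adjusted p of 0.69. The genes with the centred pattern most like 211887_x_at were LINC03124, GPRASP3 and GRIK1, at root mean square differences of 0.07, 0.08 and 0.08 where the MSR1 profile varied by 0.15.

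**Figure D5:**
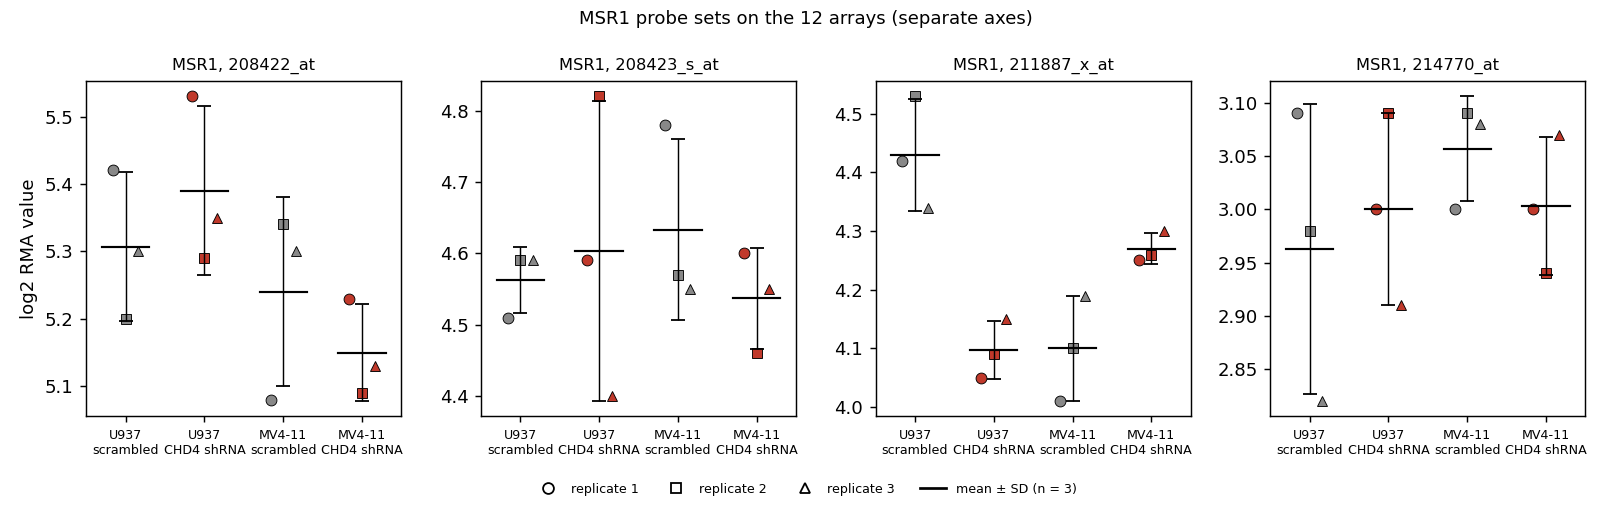
Log2 RMA value (y axis, a separate scale in each panel) of the 4 MSR1 probe sets in the 4 groups (x axis); points are single arrays, marked by replicate, with the mean and SD of 3 arrays. On 211887_x_at the U937 CHD4 shRNA points, at 4.05 to 4.15, lie below the U937 scrambled points and the MV4-11 points move the other way, a pattern the other 3 panels do not show.

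Few member calls separated the lines. Among scrambled arrays 1 of the 18 probe sets passed, MSR1 211887_x_at, at -0.33 in MV4-11 against U937 (SE 0.09, adjusted p = 0.0494), where 4.45% of all probe sets passed, 2.37% higher and 2.08% lower. That call was lost in each of the 12 fits without 1 array (adjusted p from 0.0514 to 0.187) and when arrays were centred on their median (0.0700). Among CHD4 shRNA arrays 0 of 18 passed in limma, where 5.55% of all probe sets did, 3.21% higher and 2.34% lower, and 4 had an unadjusted p under 0.05. For the difference between lines of the CHD4 shRNA change, 0 of 18 passed and 1 had an unadjusted p under 0.05; 0% of all probe sets passed that comparison. The arrays of the compared groups did not overlap on 7 of the 18 probe sets in U937 and on 8 in MV4-11, against 24.2% and 23.8% of all probe sets. Between lines they did not overlap on 5 in scrambled and on 6 in CHD4 shRNA arrays, against 25% of all probe sets in each.

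Partners and relatives of the members were read from 8 lists of 99 genes, of which 92 had a probe set. Each gene was read by its brightest probe set. The lists were chosen with earlier results of these data known, so the shares below are a description. In U937, 8 rose and 1 fell, or 9.78%, where 5.53% of all genes read this way passed. In MV4-11, 13 rose and 2 fell, or 16.3%, where 8.75% passed. The median change was 0.10 in U937 and 0.09 in MV4-11, against 0.00 and -0.03 over all genes.

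Around CD14, 2 of 11 Toll-like receptor genes and partners rose in U937 and 2 rose and 1 fell in MV4-11. CD180, a Toll-like receptor homologue of B cells and macrophages, rose by 1.18 (SE 0.23, adjusted p = 0.0127) and 1.03 (SE 0.23, adjusted p = 0.0195). IRAK3, which restrains this signalling, rose by 0.59 in U937, and in MV4-11 TLR1 rose by 0.95 while the kinase IRAK1 fell by 0.42 on the log2 scale. TLR4, the receptor CD14 serves, changed by 0.05 (adjusted p = 0.901) and 0.31 (adjusted p = 0.167), and its partner LY96 by -0.05 (adjusted p = 0.96) and 0.81 (adjusted p = 0.0842).

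Among 15 other scavenger receptors, 1 rose in U937 and 2 in MV4-11, and none fell. SCARF1, an endothelial-type scavenger receptor, went from 4.65 ± 0.20 to 5.51 ± 0.17 in U937 (0.85, SE 0.15, adjusted p = 0.00576) and from 4.62 ± 0.06 to 5.79 ± 0.28 in MV4-11 (1.17, SE 0.15, adjusted p = 0.00079; SD, n = 3). AXL, a receptor kinase for the uptake of dying cells, rose by 2.03 (SE 0.31, adjusted p = 0.0029) in MV4-11 and had a change of 0.44 (adjusted p = 0.548) in U937. SCARB1, the class B relative of CD36 that binds high-density lipoprotein, changed by 0.16 (adjusted p = 0.586) and 0.21 (adjusted p = 0.361), and MARCO, the class A relative of MSR1, by -0.35 (adjusted p = 0.277) and -0.36 (adjusted p = 0.198).

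Of 12 lipid handling genes that CD36 works with, 1 rose in U937 and 2 in MV4-11. FYN, a Src-family kinase that signals from CD36, rose by 0.99 (SE 0.16, adjusted p = 0.00497) and 1.57 (SE 0.16, adjusted p = 0.000232). FABP4, a fatty acid carrier, rose by 2.51 (SE 0.64, adjusted p = 0.0321) in MV4-11, and its U937 change of 1.95 (SE 0.64, adjusted p = 0.115) did not pass, with an SD of 1.57 among the CHD4 shRNA arrays. PPARG, a nuclear receptor that activates CD36, changed by 0.22 (adjusted p = 0.528) and -0.05 (adjusted p = 0.896), and the liver X receptor NR1H3 by 0.05 (adjusted p = 0.904) and 0.10 (adjusted p = 0.693).

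Of 12 relatives of the lectins MRC1 and FCN1, 2 rose in each line. CD209, the dendritic cell lectin DC-SIGN, rose by 0.73 (SE 0.12, adjusted p = 0.00504) in U937 and 0.78 (SE 0.12, adjusted p = 0.00291) in MV4-11. MRC2 rose by 0.36 (adjusted p = 0.0466) in U937 alone among the calls, with a change of -0.03 in MV4-11, and CLEC5A rose by 2.19 (SE 0.38, adjusted p = 0.00483) in MV4-11, with a U937 change of 0.33 (adjusted p = 0.75). Among 8 relatives of CD33, which bind sialic acid, 0 passed in U937 by limma, where 2 had an unadjusted p under 0.05, and in MV4-11 SIGLEC7 rose by 0.60 (adjusted p = 0.0239) and SIGLEC6 fell by 0.80 on the log2 scale (adjusted p = 0.0273).

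Of 8 genes of haemoglobin, haem and iron handling around CD163, BLVRB, which reduces biliverdin, rose by 0.44 (adjusted p = 0.0268) in U937. Its change was 0.34 (adjusted p = 0.061) in MV4-11. HP, which encodes haptoglobin, changed by 0.35 (adjusted p = 0.709) in U937 and 1.24 (adjusted p = 0.0513) in MV4-11. The haem oxygenase HMOX1 changed by 0.16 (adjusted p = 0.562) and 0.25 (adjusted p = 0.242). Of 8 lysosomal membrane relatives of CD68, LAPTM5 rose by 0.38 (adjusted p = 0.0374) in MV4-11, where its U937 change was 0.09 (adjusted p = 0.757), and LAMP1 changed by 0.11 (adjusted p = 0.826) and 0.38 (adjusted p = 0.181). Of 18 other monocyte markers, 1 rose and 1 fell in U937 and 3 rose in MV4-11. The integrin ITGAX rose by 0.57 (adjusted p = 0.037) and HLA-DRA fell by 0.99 on the log2 scale (adjusted p = 0.0458) in U937. The MV4-11 change of HLA-DRA, a class II antigen-presenting chain, was 0.82 (SE 0.26, adjusted p = 0.0727), with no overlap, and the difference between lines of 1.81 (SE 0.36) had an adjusted p of 0.535 and an unadjusted p of 0.00025. In MV4-11 the formyl peptide receptor FPR2 rose by 2.53 (SE 0.51, adjusted p = 0.0106), the chemokine receptor CX3CR1 by 1.44 (SE 0.31, adjusted p = 0.0139) and the co-stimulatory CD86 by 0.59 (SE 0.12, adjusted p = 0.0117).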

How the data were processed

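Total RNA was hybridised as biotinylated cRNA to Affymetrix arrays, per the labels' protocols. The authors deposited 1 table of log2 expression values; RMA is the only tool in the submitters' processing notes and its version is not given. RMA quantile-normalizes arrays, which removes a shift common to most genes, and folds of dim signals are compressed. That the values are log2 rests on their range, 2.54 to 15.05. Array number sets the precision, and detection calls were not among the values used.

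Control probe sets (62) were left out. Genes were named from the platform annotation of 2016, and symbols were updated through the RefSeq table. One limma 3.58.1 model (R 4.3.3) with 4 group means was fitted to 22215 probe sets on 12 arrays, with eBayes (8 residual and 4.86 prior degrees of freedom). The script was tested on simulated data. All members are named; those past the threshold, and the brightest probe set of the others, are given array by array, except that MSR1 is given by its called probe set. Members and lists were chosen with earlier results of these data known. The triplicates are biological per the series description. Same-numbered MV4-11 arrays had correlated deviations (0.43, 0.47 and 0.49), and U937 ones did not in every pair (0.01, 0.34 and 0.36). Pairs, read from the title numbers, enter only the replicate blocks, and the main model leaves them out. Alternatives were a dim filter, quantile normalization, median centring, trend and robust fitting, 1 probe set per gene, only the groups compared, replicate blocks and leaving out each array.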

Additional observations from a re-analysis of the deposited data

How the results depend on the processing

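Of 1054 recomputed member log2 changes, 990 kept their side of the threshold, 58 lost it, 31 of them for MSR1 211887_x_at, 6 gained it and 0 past it changed sign. The member count was 6 in U937 and 5 in MV4-11. It was 2, CD36 and AIF1, in each line with 1 probe set per gene, where 6.36% and 9.42% of all genes passed. That fit keeps only the brightest probe set of each gene and so leaves out MSR1 211887_x_at. Without 1 array the count ranged from 0 to 6 in U937 and from 2 to 5 in MV4-11. With a replicate block within each line, or in MV4-11 alone, it stayed at 6 and 5, with the same probe sets called. The count between scrambled groups was 1. It was 0 with quantile normalization, median centring and trend and robust fitting. It was also 0 with the dim filter and with 1 probe set per gene. Both leave out MSR1 211887_x_at, the only call, so they could not test it. With only the groups compared the count was 2, both CD36, and without 1 array it ranged from 0 to 1. It was also 0 with both blocks, but a block sets the comparison between lines at replicate 1 of each blocked line. Between CHD4 shRNA groups it was 0, and 0 to 1 without 1 array. For the difference between lines it stayed at 0.

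Over all probe sets, 1002 passed in U937, 2151 with a block within each line, 1626 with the MV4-11 block and 396 to 1210 without 1 array. In MV4-11 1659 passed, 718 with only the groups compared, 3700 and 2912 with these blocks and 546 to 3143 without 1 array. Between scrambled groups 988 passed, 655 with 1 probe set per gene and 421 to 1280 without 1 array. With the blocks 413 and 455 passed, but these compare the lines at replicate 1 of each blocked line. They do not show the effect of pairing on the difference of group means. Between CHD4 shRNA groups 1232 passed, 771 with 1 probe set per gene, 452 with only the groups compared and 424 to 1788 without 1 array. The MV4-11 block gave 671, with the same limit. For the difference between lines 0 passed, and 0 to 4 without 1 array. With 1 probe set per gene, 9 and 16 context genes passed, against 9 and 15. The causes were not tested. Of the 18 member probe sets, 9 are in the dimmest 25% of the array, where signal over background limits what can be seen.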
